A study of Mus musculus with 4 samples.

Results

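Glycolysis and the pentose phosphate pathway were followed through 33 genes of 55536 annotated genes in 4 RNA-seq libraries of mouse macrophages. The set was drawn up by function, with earlier results of these data known. It holds glucose and lactate transporters, enzymes of both pathways, a pair of enzymes that set the level of the activator of phosphofructokinase, and Hif1a. All 33 were found in the gene tables by symbol. A second annotated gene that carries the symbol Aldoa, 126800790 to 126809108 on chromosome 7, was not counted as a member and held 0, 0, 2 and 2 counts in replicates 1 to 4.

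The cells were macrophages grown from bone marrow of C57BL/6J mice. They received 100 ng/ml lipid A for 12 h, were washed out for 12 h and were taken at 0 min of a second exposure, so no second stimulus had acted. Other label fields name the agent lipoprotein A. All 4 replicates carry 1 donor identifier, sex and age were not collected, and each library was started from 1 µg of RNA. The series holds no untreated cells and no other group, so no value here is an effect of lipid A, and nothing says that the replicates came from separate cultures or animals. The p-values therefore measure the spread between these libraries only.

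Glycolysis splits glucose into pyruvate in the cytosol and yields ATP and NADH, and lactate dehydrogenase turns pyruvate into lactate to regenerate NAD+. The pentose phosphate pathway branches off at glucose-phosphate: its oxidative arm makes NADPH and its non-oxidative arm makes ribose-phosphate and returns carbon to glycolysis. Macrophages exposed to bacterial lipid A are known for raising glycolytic flux, in part through the transcription factor HIF-1, whose oxygen-regulated subunit is encoded by Hif1a.

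Expected gene counts, estimates of the reads that belong to each gene, summed to between 25594340 and 57126810 per library. The deposited notes split the libraries into 2 pairs: replicates 1 and 2 were made from 6 read files each, and replicates 3 and 4 from 4 each. Mitochondrial genes took 0.778 and 1.16% of counts in the first pair and 3.34 and 3.00% in the second. At these depths 3 counts correspond to 0.0525 to 0.117 CPM, counts scaled to library size. All 12 macrophage markers examined averaged above 10 TPM, a level scaled for transcript length and library size, led by Lyz2, Ctsd and Ctsb. The 8 neutrophil markers summed to 7.38 to 21.8 TPM, the 5 neuron and glia markers to 6.2 to 10.7 TPM, nearly all of it Mbp, and the 5 muscle markers to 0.83 to 2.59 TPM. Markers of B cells summed to at most 2.3 TPM, of T and NK cells to 1.4, of fibroblasts to 0.85 and of erythroid cells to 0.16. Ly6g, Alas2, Hbb-bs, Myh4, Snap25, Syt1 and Gfap were at 0 in all 4 libraries. In bulk RNA, fewer cells of a type and less RNA per cell cannot be told apart.

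The chosen genes were broadly and strongly expressed. Of the 33 genes, 32 reached 1 TPM in every library, 24 averaged 10 TPM or more and 16 averaged 100 TPM or more. The median of the members' means was 58.2 TPM, and among the 10476 genes with at least 1 TPM in every library it was 18.1 TPM. A mean of at least 100 TPM was reached by 48.5% of members and by 13.0% of those genes. The members were chosen with earlier results of these data known. Of 24 other isoenzymes of the same steps, which are not members, only 8 averaged 1 TPM or more. These shares therefore describe the chosen genes and not every gene of the pathway. The members below 10 TPM were Slc2a1, Slc2a3, Pfkm, Aldoc, Eno3, Ldhb, Slc16a1, Slc16a3 and Rpia. The coefficient of variation over the 4 libraries ranged from 9.8% for Slc2a3 to 95.2% for Slc2a6, with a median of 27.7% over members and 22.9% over the expressed genes.

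**Figure D1:**
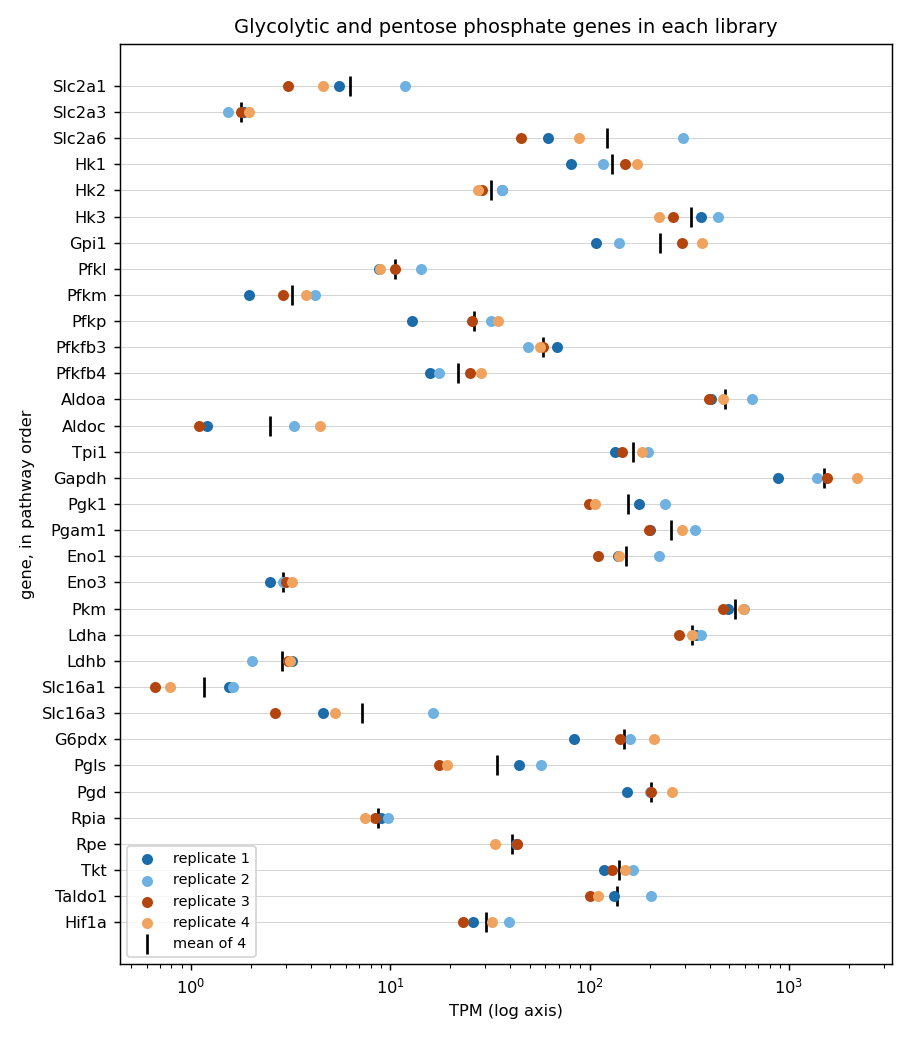
TPM of the 33 genes, in pathway order, on a log axis. Each dot is 1 library and the black tick is the mean of 4. Gapdh lies highest, at 876 to 2200 TPM, and Slc2a6 spreads widest relative to its mean, from 45.1 to 295 TPM.

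Among the glucose transporter genes of the set, Slc2a6 dominated. It encodes GLUT6, a member of the hexose transporter family that has been placed on lysosomal membranes. Slc2a6 (chr2:27021363-27027998, minus strand, mm10) had 61.6, 295, 45.1 and 88.0 TPM in replicates 1 to 4. Replicate 2 stood far above the other 3 libraries, and the mean of 122 TPM was 64.9 TPM without it. Slc2a1, which encodes GLUT1, the main glucose carrier of the plasma membrane in many cells, had 5.55, 11.9, 3.08 and 4.62 TPM, again with the highest value in replicate 2. In TPM, replicate 2 was highest for 21 of the 33 members (63.6%) and for 38.6% of the expressed genes. Slc2a3, which encodes the high-affinity carrier GLUT3, had 1.85, 1.54, 1.79 and 1.95 TPM. Slc2a6 took 92.1 ± 2.88% of the summed TPM of these genes (SD, n = 4), from 89.3 to 95.6%. That sum leaves out Slc2a8 and Slc2a9, which are not members and averaged 7.12 and 14.5 TPM, against 6.29 TPM for Slc2a1. Slc2a1 lay below Slc2a6 by 3.81 ± 0.56 log2 units in TPM with 1 added (SD, n = 4), and the gap had the same sign in 4 of 4 libraries (exact two-sided sign-flip permutation p = 0.125, Benjamini-Hochberg 0.125 over 12 pairs). That p is the smallest that 4 libraries allow, so no pair could pass 0.05. GLUT1 and GLUT3 genes were in a fixed order as well, with Slc2a1 above Slc2a3 in each library, by 0.55 to 2.35 log2 units.

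Slc2a6 is shown with the bases just before its start because its level varied most among the members. The 250 bases upstream of the RefSeq start (GRCm38.p6, chr2:27027999-27028248, minus strand, 5′ to 3′) are printed with the core letters bound by HIF-1, ACGTG or GCGTG on either strand, in capitals.
Slc2a6: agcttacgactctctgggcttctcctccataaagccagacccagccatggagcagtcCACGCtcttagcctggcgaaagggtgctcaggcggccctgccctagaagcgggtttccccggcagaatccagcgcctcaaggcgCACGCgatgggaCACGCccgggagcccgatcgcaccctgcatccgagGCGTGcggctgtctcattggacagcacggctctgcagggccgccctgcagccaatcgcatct
The window held 4 such matches, 1 as GCGTG and the others as its reverse complement CACGC. The windows of Slc2a1 and Slc16a3 held 2 each. Promoter windows were found for 32 of the 33 genes, 45 windows in all, and 37 of them (82.2%), from 29 genes, held at least 1 match. The share was 38.6% of all 32851 windows in the table and 56.6% of the 10281 windows of genes with at least 1 TPM in every library. ACGTG alone was in 35.6% of member windows and 22.4% of the windows of expressed genes, GCGTG in 57.8 and 45.1%, and the E-box CACGTG, which contains ACGTG, in 11.1 and 8.69%. A match is a string of letters and not a measured binding site.

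Hexokinase traps glucose in the cell by phosphorylating it. Hk3, the hexokinase typical of myeloid cells, was the most abundant of the 3 genes measured, at 361, 438, 263 and 223 TPM in replicates 1 to 4. Hk1, which encodes the widely expressed form that docks on mitochondria, had 80.3, 116, 151 and 172 TPM. Replicates 3 and 4 were thus lower than replicates 1 and 2 for Hk3 and higher for Hk1, with no overlap. Lack of overlap between these pairs was common, at 59.0% of all genes tested in normalized counts. Hk2, the inducible muscle and tumour form, had 36.2, 36.3, 29.0 and 27.5 TPM. The order Hk3, Hk1, Hk2 held in all 4 libraries, but the log2 ratio of Hk1 to Hk3 averaged -2.03 in the first library pair and -0.58 in the second. When only protein-coding transcripts were summed, the Hk1 to Hk3 ratio no longer had a common sign in the 4 libraries (mean -0.89 log2 units, exact sign-flip permutation p = 0.375). Hk3 and Hk1 are therefore ordered by gene totals but not by coding transcripts alone.

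**Figure D2:**
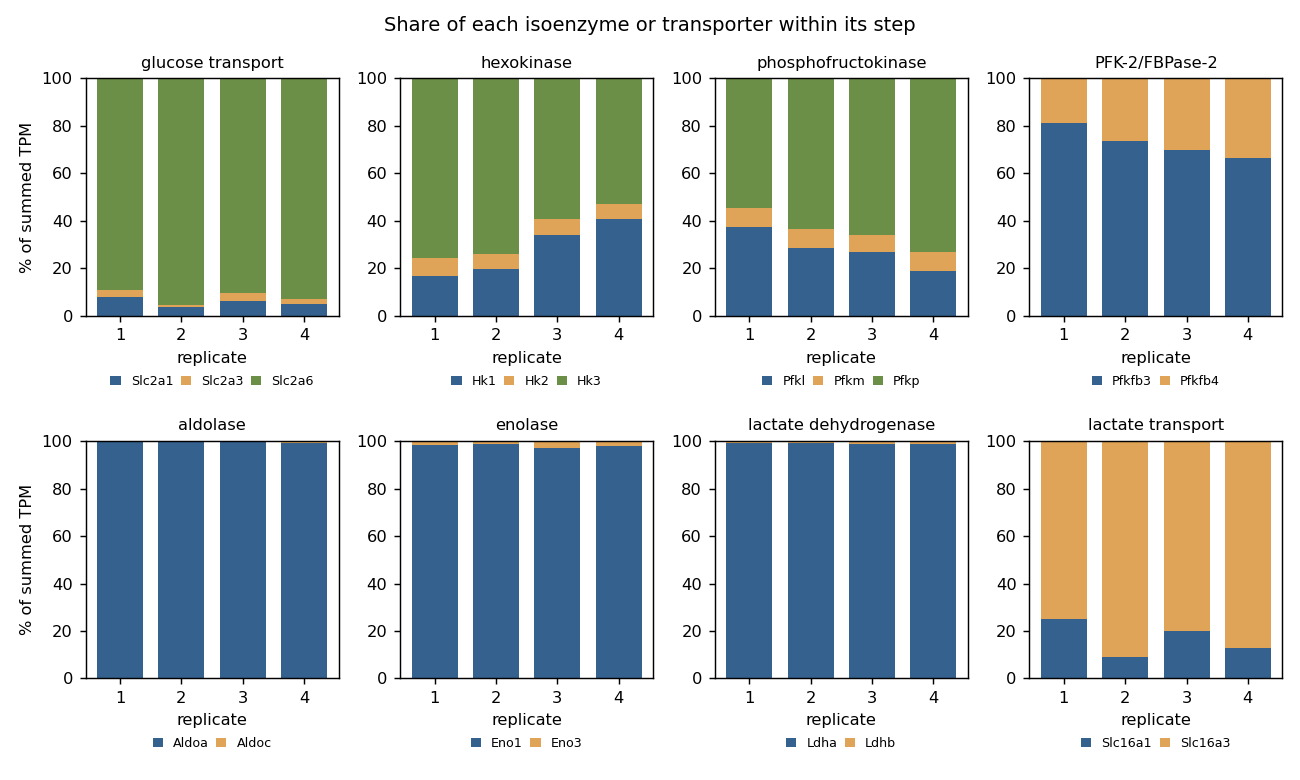
Share of each gene in the summed TPM of its step, in percent, for the 4 replicates on the x axis. Among the genes shown, Slc2a6, Aldoa, Eno1, Ldha and Slc16a3 filled most of their step in every library (Slc16a7, not shown, was above Slc16a3), and the Hk3 part of the hexokinase step ran from 75.6% in replicate 1 to 52.8% in replicate 4.

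Gpi1, which interconverts glucose-phosphate and fructose-phosphate, had 107, 140.1, 292 and 366 TPM. This gap between the pairs of libraries was 2.66-fold in TPM. In counts per kilobase of the leading coding transcript it was 1.44-fold. TPM also depends on which transcripts the counts were assigned to, which differed between the pairs as given below. Phosphofructokinase commits sugar to glycolysis. Of its subunit genes, Pfkp, the platelet type, had 12.9, 32.0, 25.8 and 34.6 TPM, Pfkl, the liver type, 8.77 to 14.3 TPM and Pfkm, the muscle type, 1.95 to 4.2 TPM. Pfkp exceeded Pfkl in 4 of 4 libraries, by 0.51 to 1.85 log2 units, and Pfkl exceeded Pfkm in 4 of 4, by 1.05 to 1.73.

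Pfkfb3 and Pfkfb4 make and break down the sugar bisphosphate that activates phosphofructokinase. Pfkfb3, whose product strongly favours synthesis, had 68.9, 49.0, 58.2 and 56.6 TPM. Pfkfb4 had 15.9, 17.6, 25.0 and 28.7 TPM, so Pfkfb3 took between 66.4 and 81.2% of the sum. Aldolase cleaves the fructose bisphosphate into trioses. Almost all of it was Aldoa, the muscle and general form, at 405, 651, 395 and 468 TPM, with Aldoc, the brain form, at 1.2, 3.28, 1.1 and 4.46 TPM or 0.504 ± 0.31% of the step (SD, n = 4). Tpi1, which interconverts the trioses, had 135, 197, 145 and 182 TPM.

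Gapdh (chr6:125161715-125166467) catalyses the oxidation step that makes NADH and was the most abundant member, at 876, 1385, 1557 and 2200 TPM. Its mean ranked 68 of all genes. Pgam1, which moves the phosphate group of phosphoglycerate, had 201, 337, 199 and 292 TPM. Eno1, the general enolase, had 139, 224, 110 and 140.3 TPM against 2.5 to 3.23 TPM for Eno3, the muscle form, and took 98.0 ± 0.595% of the pair's sum (SD, n = 4). Eno2, the neuronal enolase and not a member, is named because of its values, which were 3.15, 22.6, 5.13 and 5.17 TPM. Replicate 2 was highest for Eno2 too. The neuron and glia markers summed to 6.2, 9.55, 6.55 and 10.7 TPM, nearly all of it Mbp, with Snap25, Syt1 and Gfap at 0, and their part in Eno2 was not tested.

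Pgk1 makes the first ATP of glycolysis. The gene (chrX:106187100-106203699) had 177, 239.7, 98.8 and 106 TPM, with replicates 3 and 4 below replicates 1 and 2 and no overlap. In normalized counts, 59.0% of all genes tested had no overlap between these pairs. Its transcript shares sequence with 4 processed pseudogenes, and 1 of them, Gm5537 (chr3:58102996-58104247), is identical over 1252 nt. Gm5537 was assigned 414, 683, 1209 and 1873 counts. The copies took 8.04, 8.97, 18.5 and 21.9% of the counts of Pgk1 and its copies together, and in the second deposited quantification, which has the layout of kallisto, 10.3, 7.35, 39.9 and 48.8% of their TPM. The share was higher in replicates 3 and 4 in both quantifications. Reads over identical stretches cannot be told apart, so the level of Pgk1 on its own is uncertain.

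Gapdh has copies too. Its leading coding transcript matched 77 other annotated genes, 75 of them pseudogenes, at 95% identity or more over at least 200 nt. Together they took 5.63, 6.95, 3.38 and 2.36% of the counts, and 14.9, 14.0, 0.635 and 0.377% of the TPM in the kallisto layout. In replicates 1 and 2 the latter shares were above those of the Pgk1 copies. Gm12671 and Gm10359, each identical to Gapdh over 1002 nt, were given 0, 194, 754 and 2 counts and 0, 194, 2 and 790 counts, respectively. Between replicates 3 and 4 the counts thus stood with one copy or the other. Copies took at most 3.98% of counts for Eno1, Pgam1 and Pkm and at most 0.491% for Gpi1, Tpi1 and Ldha. For Pkm most of these counts lay in Gm49759, a gene that overlaps Pkm and aligned over 201 nt. The Pkm pseudogene Gm6560 was given 48, 70, 40 and 41 counts. For Ldhb 1 pseudogene took 5.86 to 12.9%, which was 5 to 16 counts. The other 24 genes had no such copy.

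Pyruvate kinase makes the last ATP and pyruvate. Pkm (chr9:59656368-59679375, plus strand) had 496, 594, 467 and 589 TPM. It has 11 annotated transcripts, and 1 coding transcript was found for each of 2 mutually exclusive exons. The upstream exon gives the constitutively active M1 enzyme of muscle. The downstream exon gives the M2 enzyme, which is open to allosteric control and is found in proliferating and many immune cells. Both are coding, both are exon 9 of their transcript and both have 167 bases, printed from the GENCODE M21 transcripts (mm10, plus strand) with the bases that differ between them in capitals.
M1-type, chr9:59675029-59675195: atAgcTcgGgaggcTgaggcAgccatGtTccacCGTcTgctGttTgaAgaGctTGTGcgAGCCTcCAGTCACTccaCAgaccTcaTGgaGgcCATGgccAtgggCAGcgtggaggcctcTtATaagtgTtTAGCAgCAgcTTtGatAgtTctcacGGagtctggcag
M2-type, chr9:59675568-59675734: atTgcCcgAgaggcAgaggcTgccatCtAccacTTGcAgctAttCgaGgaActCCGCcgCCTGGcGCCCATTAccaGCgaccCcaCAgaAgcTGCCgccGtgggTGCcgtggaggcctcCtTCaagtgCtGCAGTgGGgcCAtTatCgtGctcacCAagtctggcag
They differ at 64 of 167 positions, which leaves 61.7% identity and many bases by which a read over the exon can be placed.

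The M2-type transcript held most of Pkm on average, but its share differed between the pairs of libraries. It had 375, 452, 270 and 319 TPM, and the M1-type transcript had 113, 123, 184 and 248 TPM. Of the 2 together, the M2-type took 76.8, 78.6, 59.5 and 56.3%, a mean of 67.8 ± 11.5% (SD, n = 4). In the kallisto-layout quantification the values were 72.3, 75.2, 52.5 and 49.8%, so replicate 4 fell just short of a majority there. These shares are estimates over whole transcripts and not counts over the exon. Pkm-201, the M2-type, and Pkm-202, the M1-type, also differ at their ends, with first exons of 282 and 77 nt and last exons of 648 and 462 nt. An overlapping single-exon gene on the same strand, Gm49759, spans both exons and was given 321, 874, 672 and 695 counts.

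**Figure D3:**
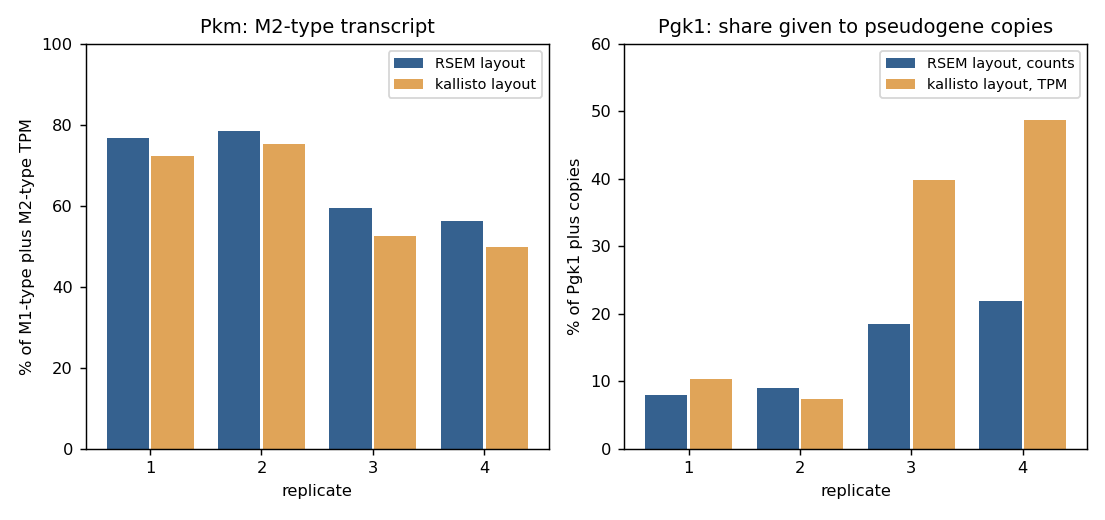
Left, the M2-type transcript as a percentage of M1-type plus M2-type Pkm TPM. Right, pseudogene copies as a percentage of Pgk1 plus its copies. Bars give each replicate in the RSEM-layout and kallisto-layout quantifications. In the RSEM layout the M2-type share was 76.8, 78.6, 59.5 and 56.3% in replicates 1 to 4, and the share of the Pgk1 copies was 8.04, 8.97, 18.5 and 21.9%.

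Lactate is made by lactate dehydrogenase. Ldha, the form typical of lactate-producing tissues, had 342, 361, 281 and 327 TPM. Ldhb, the form typical of heart, had 3.23, 2.04, 3.07 and 3.16 TPM and never exceeded 1.08% of the pair. Of the monocarboxylate carriers among the members, Slc16a3, which encodes the lactate exporter MCT4, had 4.6, 16.4, 2.66 and 5.31 TPM. Replicate 2 was again highest, as for Slc2a6, Slc2a1 and most other members. Slc16a1, which encodes MCT1, had 1.55, 1.62, 0.66 and 0.79 TPM and was the only member below 1 TPM in any library. Slc16a7, which encodes the related carrier MCT2 and is not a member, was more abundant than either at 30.3 TPM on average, from 26.4 to 33.9 TPM.

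In the oxidative arm of the pentose phosphate pathway, G6pdx, the NADPH-producing entry enzyme, had 83.7, 160, 142 and 209 TPM. Pgd, which makes NADPH at the third step, had 154, 199.8, 203 and 259.9 TPM. Pgls, the lactonase between them, was lower than both in every library, at 44.2, 57.0, 17.5 and 19.4 TPM. In the non-oxidative arm, Tkt, which encodes transketolase, had 119, 164, 129 and 150 TPM and Taldo1, which encodes transaldolase, had 132, 202, 101 and 111 TPM. The isomerase gene Rpia had 9.0, 9.71, 8.41 and 7.49 TPM and the epimerase gene Rpe 42.9, 43.5, 43.4 and 33.6 TPM. Rpia was the lowest gene of the pathway's 7 members in each library, and Tkt and Taldo1 did not keep 1 order across libraries.

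Hif1a had 26.1, 39.6, 23.1 and 32.5 TPM. Its partner gene Arnt had a mean of 24.8 TPM, and of the genes that limit HIF-1, Egln2 had 28.2 and Vhl 10.2 TPM. Of 16 further HIF targets, 13 had a mean of at least 1 TPM, led by P4ha1 at 97.7, Bnip3l at 66.4 and Vegfa at 20.5 TPM. Beside the members' median of 58.2 TPM, the median was 8.1 TPM for the enzymes branching off glycolysis and 14.4 TPM for the genes of pyruvate entry into mitochondria. The first list had 18 of 22 genes at a mean of 1 TPM or more, led by Gfpt1 (32.0 TPM), Pgm1 (28.9 TPM) and Pygl (21.9 TPM). In the second it was 12 of 14, led by the carrier subunit Mpc1 (172 TPM), Dld (61.5 TPM) and Pdhb (52.0 TPM). Only 8 of 24 other isoenzymes of the same steps reached 1 TPM, led by Slc16a7, Adpgk (19.5 TPM) and Slc2a9 (14.5 TPM). Slc2a9, which encodes the urate carrier GLUT9, thus exceeded Slc2a1 on average. Hkdc1, Gapdhs, Pklr, Ldhc and Tktl1, forms known from other tissues, were among those at 0 in all 4 libraries.

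The leading transcript, the one with the highest mean TPM, held at least 90% of the gene in 14 of the 33 members, among them Pgk1, Pgam1, Tpi1, Eno1, Taldo1 and G6pdx. In 32 members it was protein-coding. The exception was Tkt, where Tkt-209, annotated as a processed transcript, took 65.8, 65.6, 84.4 and 82.4% of the TPM and the coding Tkt-201 took 31.6, 29.2, 14.8 and 16.1%. Protein-coding transcripts made up under 90% of the TPM on average in 8 members, namely Hk2, Hk3, Gpi1, Pfkp, Pfkfb4, Gapdh, Pgd and Tkt. Slc2a1 (80.4%), Slc2a3 (88.6%) and Slc2a6 (86.7%) were also below 90% in the kallisto layout. In the kallisto layout the coding share of Hk2 was 100%, and its mean level was 20.2 TPM against 32.2 TPM. Hk2 was the only member whose mean over the 4 libraries moved by over 1.5 times between the layouts. Within replicates 1 and 2 Gapdh also moved by over 1.5 times, with 533 and 863 TPM in the kallisto layout against 876 and 1385 TPM. Over members, the median ratio of kallisto-layout to RSEM-layout TPM was 0.752, 0.765, 1.0 and 1.01 in replicates 1 to 4. The gap between the layouts thus differed between the pairs of libraries.

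Transcript make-up differed between the pairs of libraries in 13 of 32 members with 2 or more transcripts and 1 TPM in each library. In 10 members (31.2%) the leading transcript's share was at least 10 percentage points lower in replicates 3 and 4, without overlap, against 18.5% of 9354 genes, and in 3 (9.38%) it was higher, against 17.4%. Such differences were thus common across all genes. In Gapdh the coding Gapdh-203 took 79.9, 82.2, 55.0 and 49.9%, and the processed transcript Gapdh-208, of 483 nt, took 13.3, 12.0, 43.3 and 42.5%. In Ldha the coding Ldha-202 took 99.5, 98.8, 73.1 and 67.5%, and Ldha-206, of 645 nt, took 0, 0, 25.9 and 31.6%. Both genes gave more of their TPM to a short transcript in the second pair of libraries.

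Gpi1 and Pgd showed the same layout. Gpi1-201, of 2884 nt, took 72.2, 66.6, 29.0 and 25.1% and Gpi1-205, of 581 nt, took 0.597, 0, 36.1 and 43%. Pgd-201 took 95.9, 95.5, 74.4 and 69.1% and Pgd-205, which retains an intron, took 3.04, 1.92, 24.5 and 30.0%. A count on a short transcript adds more TPM than a count on a long one. For Gapdh the ratio between the pairs was 1.66 in TPM and 1.21 in counts per kilobase. In the kallisto layout the same transcript's share was also lower in replicates 3 and 4 in all 10 of the members with a lower share, but only 7 still differed by 10 points without overlap, namely Slc2a6, Gpi1, Pfkfb4, Gapdh, Pkm, Ldha and Pgd. Hk3-201 took 69.4, 64.8, 66.1 and 66.7% there, so its difference was gone, and Aldoc and Eno3 did not meet the rule either. Of the 3 members with a higher share, Hk2, Pfkfb3 and Tkt, only Tkt kept the direction. Hk2-201 took 99.2, 98.5, 100 and 91.0% and Pfkfb3-220 took 6.25, 6.34, 5.55 and 4.89% in that layout. The second quantification named the same leading transcript in 31 of 33 members, the others being Hk1 and Pfkfb3. The share of that transcript could still differ between the layouts. Slc2a1-201 took 98.6% on average in the RSEM layout and 61.8% in the kallisto layout, and Slc2a3-201 took 79.5 and 49.5%.

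**Figure D4:**
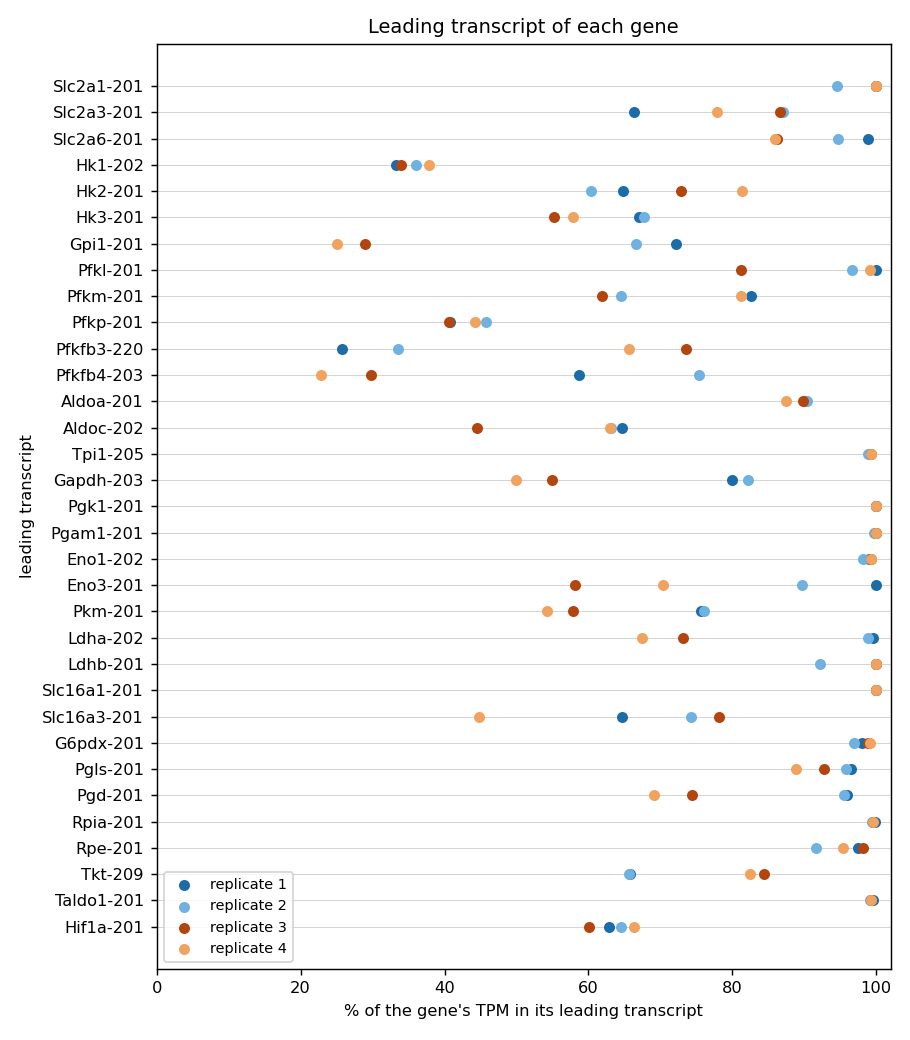
Share of the gene's TPM held by its leading transcript, in percent, for each library. Dots of replicates 3 and 4 lie to the left of replicates 1 and 2 by at least 10 percentage points on average in 10 members, among them Gpi1-201, Ldha-202, Gapdh-203 and Pgd-201.

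Counts were then compared between replicates 3 and 4 and replicates 1 and 2, which is a comparison of libraries and not of conditions. Pgls and Pgk1 were lower in replicates 3 and 4 and no member was higher. That is 2 of 33 members tested (6.06%), all of which passed the filter on low counts, against 5.80% of 11991 genes in either direction, so the members' share was near that of all genes. For lower calls the background was 3.72% and for higher calls 2.08%. Pgls had 22.0, 25.0, 9.12 and 10.5 normalized CPM in replicates 1 to 4, a log2 difference of -1.26 (SE 0.18, edgeR adjusted p = 0.034). Pgk1 had 208, 237, 108 and 114, a log2 difference of -1.01 (SE 0.17, edgeR adjusted p = 0.037). With offsets for GC content and length, Pgls had -0.29 (edgeR adjusted p = 0.311) and Pgk1 -1.07 (edgeR adjusted p = 0.0425). Pgls had the highest GC content of the members, 65.1% against a median of 49.8% over genes tested, and a length of 963 nt against 2409 nt. With its copies added, Pgk1 had -0.81 (SE 0.17, edgeR adjusted p = 0.0553), so each call was lost under 1 of these alternatives. Pgk1 and Gm5537 together had 201, 277, 134 and 153 TPM in replicates 1 to 4. In the kallisto layout their sum was 139, 189, 134 and 157 TPM, so the pairs of libraries overlapped there. Neither call held without replicate 1, 3 or 4, where the edgeR adjusted p was 0.0513, 0.206 and 0.222 for Pgls and 0.0522, 0.23 and 0.226 for Pgk1, at log2 differences of -1.36 to -0.96. An arm of 1 library was assumed to vary like the other. DESeq2 called 7 members lower and 1 higher, against 9.24 and 6.95% of the genes it tested, and edgeR with the offsets called 1 lower, against 1.96%. With no filter on low counts edgeR called 8 lower and 1 higher, against 6.16 and 5.51% of genes.

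The remaining 31 members did not pass. Differences between the library pairs were 0.74 (SE 0.20, edgeR adjusted p = 0.0775) for Hk1, -0.95 (SE 0.21, edgeR adjusted p = 0.0566) for Hk3 and -1.48 (SE 0.66, edgeR adjusted p = 0.206) for Slc2a6, whose SE was the highest after that of Aldoc. Without replicate 2 the difference for Slc2a6 was -0.15 (edgeR adjusted p = 0.825), and for Slc16a3 it was -0.16 (edgeR adjusted p = 0.828) against -1.24 with all libraries. Without the filter on low counts both passed, Slc2a6 at -1.42 (edgeR adjusted p = 4.44e-08). The median over members was -0.13 log2 units and over all genes -0.01. Normalized counts of the pairs did not overlap in 15 members (45.5%), against 59.0% of all genes. Outside the members, Pdk2, a kinase that shuts off pyruvate dehydrogenase, was higher (1.34, SE 0.27, edgeR adjusted p = 0.049) and was 1 of 13 tested genes of pyruvate entry called. The HIF target Higd1a was lower (-1.31, SE 0.25, edgeR adjusted p = 0.0448) and was 1 of 13 tested targets called. No gene was called among 8 other isoenzymes, 19 branch enzymes and 6 HIF regulators tested.

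**Figure D5:**
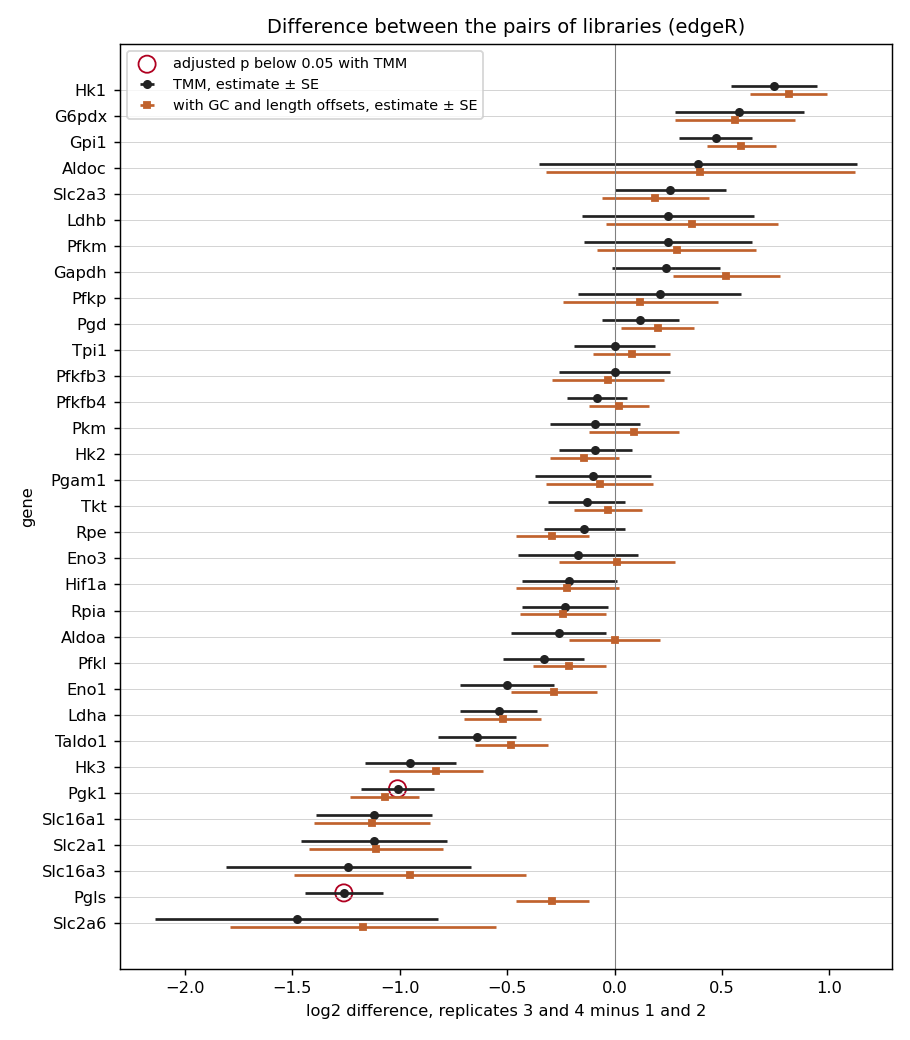
Log2 difference of replicates 3 and 4 minus replicates 1 and 2 for the 33 genes, with bars of 1 SE, from edgeR with TMM scaling (black) and with GC and length offsets (orange). Circles mark the 2 genes with an adjusted p below 0.05, Pgls and Pgk1, and the orange estimate of Pgls lies at -0.29.

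Within each pair, the libraries differed in a way shared by many members. Normalized counts were higher in replicate 2 than in replicate 1 and also higher in replicate 4 than in replicate 3 in 21 of 33 members (63.6%), against 27.4% of all genes tested. This pattern was described after the values were seen, and it has no test, since the labels give no difference between these libraries. It covered Slc2a1, Slc2a6, Aldoa, Tpi1, Gapdh, Pgk1, Pgam1, Eno1, Pkm, Slc16a3, G6pdx, Pgd and Hif1a, among others. Pfkfb3, Hk2, Ldha, Rpia and Rpe were not among them. The rule set no minimum ratio. Pkm had ratios of 1.01 for replicate 2 over 1 and 1.23 for replicate 4 over 3, and Pgk1 had 1.14 and 1.05. Whether ratios this small count as higher depends on how the libraries were scaled. The median ratio over members was 1.14 for replicate 2 over 1 and 1.15 for replicate 4 over 3, and over all genes it was 0.988 and 1.00.

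At 1.5-fold or more, replicate 2 exceeded replicate 1 in 7 members (21.2%), against 12.2% of all genes. They were Slc2a6 (4.04-fold), Slc16a3 (3.22-fold), Aldoc (2.63-fold), Pfkm (2.14-fold), Pfkp (2.00-fold), Slc2a1 (1.77-fold) and G6pdx (1.60-fold). The same genes had ratios of replicate 4 over 3 of 1.89, 1.80, 4.11, 1.28, 1.60, 1.47 and 1.45. Of the 12 macrophage markers, 2 (Cd14 and Ctsd) had higher normalized counts in both of these comparisons and 5 (Itgam, Fcgr1, Mertk, Mrc1 and Spi1) had lower ones. The neutrophil markers summed to 14.2, 7.82, 21.8 and 7.38 TPM in replicates 1 to 4, lower in replicates 2 and 4. Most of that difference lay in Ngp, at 5.15, 0.28, 9.44 and 0.59 TPM. Mmp8 had 6.55, 6.64, 10.05 and 6.45 TPM and Camp 0.47, 0.65, 0.35 and 0.15 TPM, so neither was lower in replicate 2 than in replicate 1. The part of cell make-up in the members' values was not tested.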

How the data were processed

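PolyA RNA-seq was measured in 4 libraries of 1 group. Per the labels and deposited notes, the files were made on mm10 with GENCODE M21. The authors' gene and transcript tables hold expected counts, not normalized, and TPM, scaled within each library. Which programs made them is not given in the sources used here. The names RSEM and kallisto describe column layouts. Levels are RSEM-layout TPM. Of 81881 gene rows, 26248 tRNA and 97 spike-in rows were left out. Expected counts were rounded and tested with edgeR 4.0.16 under R 4.3.3 by the quasi-likelihood test, with TMM scaling, a count minimum of 10 in filterByExpr and Benjamini-Hochberg adjustment over 11991 genes at 0.05. DESeq2 1.42.0 was an alternative. What the number of read files reflects is not known. On simulated data for this comparison (11991 genes), 57% of genes changed 2-fold and 99.0% of those changed 4-fold were called. Ratios used log2(TPM + 1) and an exact sign-flip permutation test. Copies were found with BLAST+ 2.17.0. GC content and length came from M21 transcripts, and promoter windows from RefSeq (GRCm38.p6). All members are named. From the other pathway lists the 3 genes of highest mean and those called are named. Eno2, Slc2a8 and some list genes at 0 were added after their values were seen. The members and lists were chosen with earlier results of these data known. Some genes are not reported here.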

Additional observations from a re-analysis of the deposited data

Results flagged for a closer look

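In groups of 4 libraries, 1 value in 20 groups is set apart from the other 3 by chance at the limit used, and 79 sets of values were examined. Ldhb had 2.04 TPM in replicate 2, below 3.07 to 3.23 TPM in the others, which rested on 37 counts. Rpe had 33.6 TPM in replicate 4, below 42.9 to 43.5 TPM in the others. Among shares of the leading transcript, Slc2a1-201 took 94.5% in replicate 2 and 100% elsewhere, Ldhb-201 took 92.2% in replicate 2 and 100% elsewhere, Aldoc-202 took 44.5% in replicate 3 and 63.0 to 64.7% elsewhere, and Pgk1-201 took 99.9% in replicate 4 and 100% elsewhere. For Slc2a1-201, Ldhb-201 and Pgk1-201 the other shares were tied at 100%. Any lower value is then set apart, so the rate of 1 in 20 does not apply to them. In the kallisto layout Slc2a1-201 took 65.1, 54.2, 64.6 and 63.3% in replicates 1 to 4. Aldoc had 33 to 328 counts per library, so its shares rest on few reads.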

How the results depend on the processing

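The number of members lower in replicates 3 and 4, 2 in the test reported, was 7 with DESeq2, 0 with scaling by library size only, 8 with no filter on low counts (6.16% of all genes under that setting), 1 with GC content and length offsets and 1 with copies added to the member, the last chosen after seeing the data. Leaving out 1 library gave 0 to 2: 0 without replicate 1, 3 or 4 and 2 without replicate 2. The number higher was 1 with DESeq2 and 1 with no filter, in both cases Hk1, and 0 otherwise. DESeq2 added Slc2a1, Hk3, Ldha, Slc16a1 and Taldo1 to the lower genes. Of 403 values of members not called, 23 had another sign under an alternative, none of them with an adjusted p below 0.05. The median level over members, 55.1 TPM averaged over libraries, was 63.5 TPM when rescaled over protein-coding genes and 31.9 as CPM per kilobase, an alternative chosen after seeing the data. All 12 ratios kept their sign on average under every alternative, and 11 had a common sign in every library for protein-coding transcripts only. At least 90% in the leading transcript was found for 14 members and for 11 in the kallisto layout. The M2-type share of Pkm was 62.5% there and 64.2 to 71.6% with 1 library left out. No paired analysis was possible because the series has 1 group. Depth limits Slc2a3, Slc16a1, Ldhb, Aldoc, Pfkm and Eno3, which had 33 to 397 counts per library.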
